A study of Mus musculus with 6 samples.

Results

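The genes described here are 10 feedback regulators and outputs of the RAS-RAF-MEK-ERK pathway, namely Spry1, Spry2, Spry4, Spred1, Spred2, Dusp4, Dusp5, Dusp6, Etv4 and Etv5. They were chosen by name, with earlier results of these data known. All 10 were found among the 22547 genes of the deposited single-cell count table of the tumour stages. The libraries came from mouse mammary tumours carrying MMTV-Wnt1, which drives the Wnt1 ligand from a mammary promoter, and what the labels write as iFGRR, read here as an inducible FGF receptor. Of the 6 libraries in the series, the 4 of the stage table were used, 1 per group.

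All groups were FVB (FVB.rGH-Luc-GFP) mice with transplanted tumours, given the B/B homodimerizer, which switches on the inducible receptor, every 3 days from the day after transplantation until the tumours no longer needed it. The Primary library (genotype label MMTV-Wnt1/iFGRR2) came from mice aged 8-10 weeks, and no inhibitor treatment is stated for it. Residual and recurrent tumours followed the FGF receptor inhibitor NVP-BGJ398, started at a tumour diameter of 7-9 mm, given for 14 days and stopped for 14 days. The Dormant library (MMTV-Wnt1/iFGRR1) came from mice aged 10-12 weeks, the Long-term dormant library (MMTV-Wnt1/iFGRR4) from mice aged 32-34 weeks, and the Recurrent library (MMTV-Wnt1/iFGRR3) from mice aged 20-22 weeks. Age and stage therefore cannot be told apart, and what the changing number in the genotype label stands for is not given in the sources used here. Nor is the number of mice behind each library. Cells had been frozen, thawed and sorted as live before capture, with 10000 cells targeted per library. With 1 library per group there was no test and no replicate check between groups, and every 95% interval below covers counting error only.

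ERK signalling switches on genes whose products limit it. Sprouty and Spred proteins act on RAS and RAF upstream of ERK, and the dual-specificity phosphatases Dusp4, Dusp5 and Dusp6 remove phosphates from ERK itself, Dusp6 in the cytoplasm and Dusp4 and Dusp5 in the nucleus. Etv4 and Etv5 are ETS transcription factors of the PEA3 family, which FGF signalling induces in many epithelia, the developing mammary gland included. Because transcription of these genes follows ERK activity in many cell types, they are widely read as its outputs, although the transcript level does not measure phosphorylated ERK.

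ETS factors bind DNA at a GGAA core, and the promoter windows of 4 members called in tumour cells are shown for this reason. RefSeq windows ran from 250 bases before to 50 bases after a transcript start (GRCm38.p6, the build of the deposited counts). Windows were kept for 7 of the 10 members, 8 windows in all. No window was matched for Etv4 or Dusp4, and Spry4 was left out by choice. In the sequences below, read 5′ to 3′ on the gene's strand, capitals mark GGAA or its reverse complement TTCC. The Dusp6 window lies at chr10:99262981-99263280 on the plus strand and holds 6 matches. The Etv5 windows lie on the minus strand at chr16:22439521-22439820, with 0 matches, and at chr16:22438319-22438618, with 6 matches. The Spry1 window lies at chr3:37639697-37639996 on the plus strand with 1 match, and the Dusp5 window at chr19:53528895-53529194 on the plus strand with 3.
Dusp6: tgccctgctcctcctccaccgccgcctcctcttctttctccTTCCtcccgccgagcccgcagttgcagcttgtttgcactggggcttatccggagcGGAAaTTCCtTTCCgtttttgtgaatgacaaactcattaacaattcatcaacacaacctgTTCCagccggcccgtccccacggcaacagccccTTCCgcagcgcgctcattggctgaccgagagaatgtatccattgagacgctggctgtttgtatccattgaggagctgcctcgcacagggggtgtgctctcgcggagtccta
Etv5, first start: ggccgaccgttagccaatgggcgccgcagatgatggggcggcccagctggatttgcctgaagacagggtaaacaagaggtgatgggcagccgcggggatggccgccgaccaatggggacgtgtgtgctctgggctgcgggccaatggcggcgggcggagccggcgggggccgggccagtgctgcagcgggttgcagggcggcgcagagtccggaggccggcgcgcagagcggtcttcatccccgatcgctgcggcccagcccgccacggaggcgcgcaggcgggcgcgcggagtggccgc
Etv5, second start: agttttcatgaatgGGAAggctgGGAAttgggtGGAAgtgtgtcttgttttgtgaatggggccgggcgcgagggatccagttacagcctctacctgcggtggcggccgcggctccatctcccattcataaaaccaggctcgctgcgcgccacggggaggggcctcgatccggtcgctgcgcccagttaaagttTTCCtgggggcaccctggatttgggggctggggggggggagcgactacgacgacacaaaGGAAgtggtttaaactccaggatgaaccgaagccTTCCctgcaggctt
Spry1: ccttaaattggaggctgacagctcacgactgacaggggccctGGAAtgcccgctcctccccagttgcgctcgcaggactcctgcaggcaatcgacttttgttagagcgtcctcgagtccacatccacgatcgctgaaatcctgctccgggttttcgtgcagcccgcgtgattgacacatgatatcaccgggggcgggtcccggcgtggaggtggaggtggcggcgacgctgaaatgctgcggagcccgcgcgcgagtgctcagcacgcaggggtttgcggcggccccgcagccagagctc
Dusp5: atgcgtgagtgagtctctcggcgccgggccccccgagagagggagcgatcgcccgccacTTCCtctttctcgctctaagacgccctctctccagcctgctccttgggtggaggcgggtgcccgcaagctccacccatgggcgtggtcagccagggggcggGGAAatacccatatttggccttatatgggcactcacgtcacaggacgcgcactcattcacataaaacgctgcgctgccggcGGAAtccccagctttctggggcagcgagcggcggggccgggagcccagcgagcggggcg
GGAA is common, since 96.0% of all 32851 RefSeq promoter windows of this length held it on either strand, with a median of 3 matches. The longer motif GGAAGT, which contains GGAA, was in 23.8% of all windows. It occurred 2 times in the second Etv5 window, 1 time in the Dusp5 window and 1 time in the Spred2 window, which is not shown. A match is a description of the letters and shows neither binding nor a cause of the levels below.

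The stage table held 3541 to 6083 cells and 14185689 to 41259292 UMIs per library, a UMI being 1 counted RNA molecule. Median UMIs per cell ranged between 2568 in Dormant and 7065 in Recurrent. Between 26 and 50 cell barcodes were shared by each pair of libraries. Cells were clustered without the 10 members, and clusters were named from marker genes. Luminal-like and basal-like cells with at least 1 UMI of the eGFP transcript are called luminal and basal tumour cells here, since the labels assign eGFP to no cell type. Luminal tumour cells numbered 1660 (Primary), 98 (Dormant), 2 (Long-term dormant) and 2613 (Recurrent), and basal tumour cells 439, 162, 1 and 16 in the same libraries. Luminal markers summed to 21538, 12547 and 18429 UMIs per 1000000 UMIs of the class (CPM) in luminal tumour cells of Primary, Dormant and Recurrent. In basal tumour cells they summed to 1212 CPM in Dormant and 2614 CPM in Primary. The 12 basal markers summed to 72.1, 409 and 80.6 CPM in luminal tumour cells of Primary, Dormant and Recurrent. Most of the Dormant sum was Krt14, at 303 CPM in Dormant and 10.4 CPM in Primary luminal tumour cells, while Krt5 was at 0 in Dormant and 0.64 CPM in Primary. Of the Dormant luminal tumour cells 26 were in cluster 21, against 9 of the Primary ones. Cluster 21 also held 23 of the 27 Dormant and 66 of the 107 Long-term dormant luminal-like cells without eGFP. The part of these markers and clusters in the member values was not tested. Stages were compared only where both libraries had at least 50 cells of a class, so Long-term dormant tumour cells entered no comparison.

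A gene was called higher or lower where its CPM differed at least 2-fold, among genes with at least 20 UMIs over both groups. In luminal tumour cells, Dormant against Primary, 1 of the 10 members was higher, where 10.5% of the 10753 genes measured were. 5 of the 10 were lower, where 10.2% of genes were. Dusp5 was the member that was higher, and Dusp6, Etv4, Etv5, Spry1 and Spred1 were lower. The median log2 ratio of the members was -0.89, and that of all genes measured was -0.00. Recurrent luminal tumour cells lay between Primary and Dormant for Dusp5, Dusp6, Etv4, Etv5 and Spred1.

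Dusp6, the cytoplasmic ERK phosphatase, was the most abundant member in Primary and Recurrent luminal tumour cells, while Dusp5 was in Dormant ones (though Dusp6 was above it in Dormant cells without lymphocyte markers, at 114 and 95.7 CPM). Its level in luminal tumour cells was 333 CPM (95% interval 322 to 344, 3652 UMIs) in Primary, 108 CPM (89.2 to 129, 119 UMIs) in Dormant and 235 CPM (229 to 241, 6661 UMIs) in Recurrent. The 3 intervals did not overlap. The Dormant to Primary log2 ratio was -1.62 (-1.90 to -1.36), a 3.08-fold lower level. A Dusp6 UMI was seen in 70.4% of Primary, 42.9% of Dormant and 68.0% of Recurrent luminal tumour cells. When every cell was thinned to 1000 UMIs these shares became 26.3%, 10.2% and 19.4%, and they kept their order. The thinned share in T/NK cells, the low-Dusp6 class used as background, was between 1.20% and 3.67%. In Dormant, the 1 cell with most Dusp6 held 16.0% of the class's Dusp6 UMIs.

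Dusp5, a nuclear ERK phosphatase, differed in the other direction. It stood at 51.6 CPM (47.5 to 56.1) in Primary, 148 CPM (126 to 173, 164 UMIs) in Dormant and 103 CPM (99.4 to 107) in Recurrent luminal tumour cells. Both later libraries were above Primary, with intervals apart from its interval and from each other. The Dormant to Primary log2 ratio was 1.53 (1.26 to 1.78), and the Recurrent to Primary ratio was 1.00, just under the 2-fold line. Cells with a Dusp5 UMI made up 20.6%, 52.0% and 49.4% of the Primary, Dormant and Recurrent class, or 5.82%, 12.2% and 10.3% after thinning. With equal weight per cluster instead of per UMI, the Dormant to Primary log2 ratio of Dusp5 was 0.48, so the 2-fold call ended. The third phosphatase, Dusp4, which is also nuclear, was at 23.6, 28.0 and 19.7 CPM in Primary, Dormant and Recurrent and passed no 2-fold call.

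The ETS factors Etv4 and Etv5 were both lower in Dormant. Etv4 was at 21.6 CPM (18.9 to 24.5, 237 UMIs) in Primary, 2.71 CPM (0.56 to 7.93, 3 UMIs) in Dormant and 4.69 CPM (3.93 to 5.56, 133 UMIs) in Recurrent luminal tumour cells. Its Dormant to Primary log2 ratio was -2.77 (-5.28 to -1.43), where the 3 Dormant UMIs set the width of the interval. Etv5 was at 60.4 CPM (55.9 to 65.2), 14.5 CPM (8.27 to 23.5, 16 UMIs) and 35.3 CPM (33.2 to 37.6) in Primary, Dormant and Recurrent. Its Dormant to Primary log2 ratio was -2.02 (-2.88 to -1.35). Primary thus had the highest level of both factors, and the Recurrent level of Etv4 lay inside the Dormant interval while that of Etv5 lay above it.

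Among the Sprouty and Spred genes, Spry1 and Spred1 were lower in Dormant luminal tumour cells, while Spry2 kept a similar level. Spry1 was at 23.5 CPM (20.7 to 26.6) in Primary, 8.14 CPM (3.72 to 15.5, 9 UMIs) in Dormant and 7.41 CPM (6.44 to 8.48) in Recurrent. Spred1, a membrane-bound RAS pathway inhibitor that recruits neurofibromin, was at 47.1 CPM (43.1 to 51.3), 19.9 CPM (12.5 to 30.1) and 33.4 CPM (31.3 to 35.6). The Dormant to Primary log2 ratios were -1.45 for Spry1 and -1.21 for Spred1. Weighting each cell equally moved them to -0.59 and -0.98, and weighting each cluster equally gave -0.90 and -0.98, so both calls ended under either weighting. Spry2 was at 49.6, 47.9 and 54.5 CPM in Primary, Dormant and Recurrent, and the interval of its Dormant to Primary log2 ratio ran from -0.49 to 0.36. 1 cell held 20.8% of the Spry2 UMIs in Dormant. Spry4 was at 3.19, 2.71 and 2.08 CPM with 3 UMIs in Dormant, and Spred2 at 14.1, 9.04 and 12.2 CPM, neither past 2-fold.

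**Figure D1:**
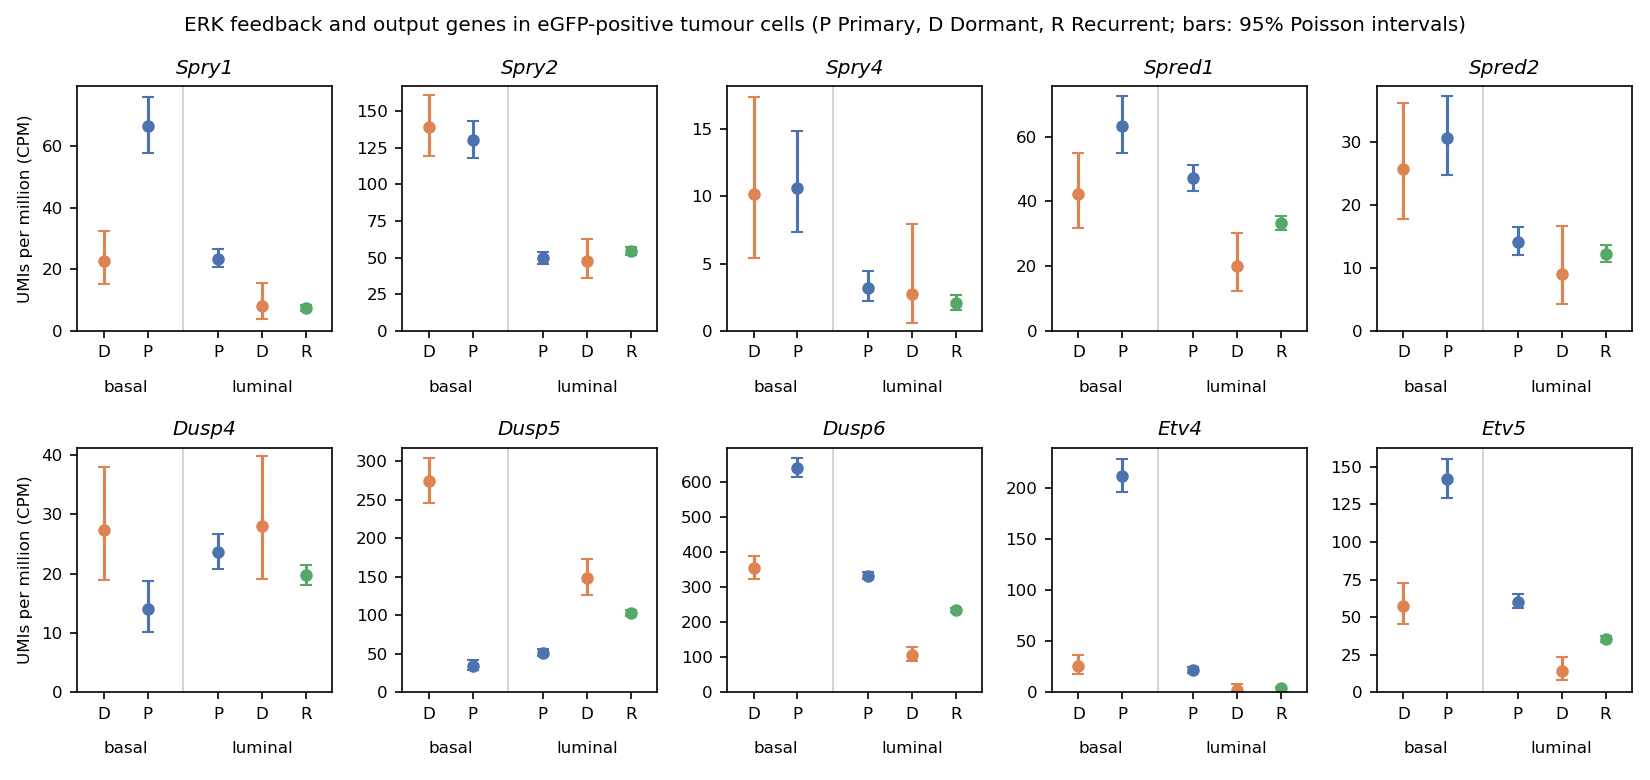
Level of each of the 10 genes in CPM in basal tumour cells (Dormant D, Primary P) and luminal tumour cells (Primary P, Dormant D, Recurrent R), each panel with its own axis starting at 0; points are summed counts of 1 library and bars are 95% Poisson intervals. In both cell types Dusp5 is higher in Dormant than in Primary (274 against 34.9 CPM in basal cells), and Etv4, Etv5, Dusp6 and Spry1 are lower.

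In basal tumour cells of the same 2 libraries Dusp5 was again higher in Dormant, and Etv4, Etv5 and Spry1 were again lower. Dormant against Primary, 1 of the 10 members was higher, where 10.7% of 9485 genes were, and 3 were lower, where 15.8% of genes were. The members' median log2 ratio was -0.40, against -0.23 for all genes. Dusp5 was at 274 CPM (246 to 304, 351 UMIs) in Dormant and 34.9 CPM (28.8 to 42.0, 112 UMIs) in Primary basal tumour cells. That is a 7.82-fold higher level in Dormant. A Dusp5 UMI was present in 68.5% of Dormant and 15.9% of Primary basal tumour cells, or 23.6% and 3.19% after thinning.

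Etv4 had the widest gap in the other direction. It was at 25.8 CPM (17.7 to 36.2, 33 UMIs) in Dormant and 212 CPM (196 to 229, 680 UMIs) in Primary basal tumour cells, an 8.11-fold lower level in Dormant. The share of cells with an Etv4 UMI was 15.4% in Dormant and 53.3% in Primary, or 2.48% and 16.6% after thinning. Most Primary and few Dormant basal tumour cells thus had a detected Etv4 molecule. Etv5 was at 57.8 CPM (45.3 to 72.5) in Dormant and 142 CPM (129 to 156) in Primary, with a log2 ratio of -1.29. Equal weight per cell gave -0.82 for Etv5, which ended its call. Spry1 was at 22.6 CPM (15.2 to 32.5) in Dormant and 66.4 CPM (57.8 to 75.9) in Primary, with a log2 ratio of -1.53. For each of these 3 genes the Dormant interval lay wholly below the Primary interval.

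The remaining members stayed within 2-fold in basal tumour cells. Dusp6 was at 354 CPM (322 to 388) in Dormant and 640 CPM (613 to 668, 2053 UMIs) in Primary, a log2 ratio of -0.85. A Dusp6 UMI was found in 75.9% of Dormant and 86.8% of Primary basal tumour cells. Dusp6 thus remained the most abundant member of Dormant basal tumour cells, ahead of Dusp5. Dusp4 was at 27.3 CPM (35 UMIs) in Dormant and 14.0 CPM (45 UMIs) in Primary, a log2 ratio of 0.97 just under the line. Spred1 was at 42.1 CPM in Dormant and 63.3 CPM in Primary. Spry2 was at 139 CPM in Dormant and 130 CPM in Primary, with overlapping intervals, as were Spry4 at 10.1 and 10.6 CPM and Spred2 at 25.8 and 30.6 CPM. Basal tumour cells of the 2 libraries fell into different clusters. In Primary 435 of the 439 were in cluster 13, led by Krt17 and Trp63, and in Dormant 154 of the 162 were in cluster 19, led by the contractile genes Acta2, Mylk and Cnn1. Their basal markers summed to 4807 CPM in Dormant and 2705 CPM in Primary, and fibroblast markers to 698 and 8.11 CPM. Cluster 19 also held 16 of the 17 Dormant and 53 of the 54 Long-term dormant basal-like cells without eGFP. The part of these marker and cluster differences in the member values was not tested.

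**Figure D2:**
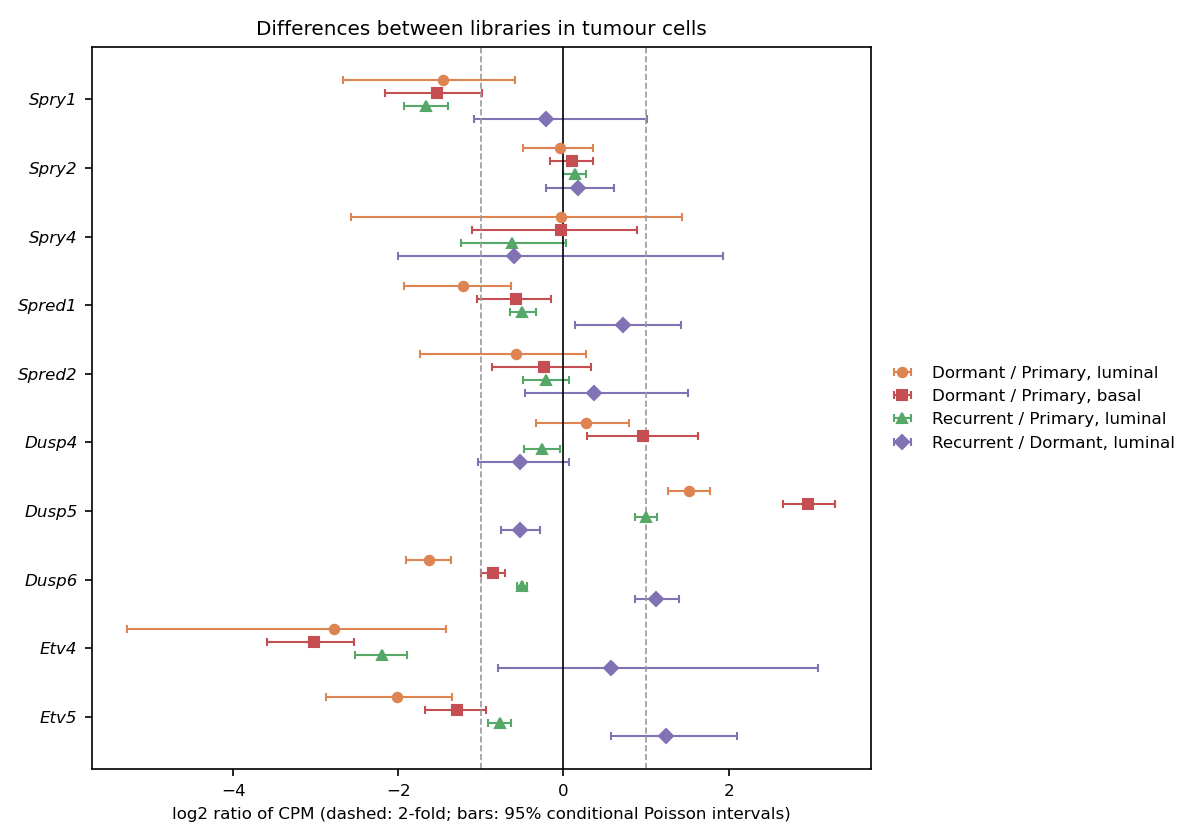
Log2 ratio of CPM for each gene (rows) in 4 comparisons of tumour cells (Dormant to Primary in luminal and in basal cells, Recurrent to Primary and Recurrent to Dormant in luminal cells); bars are 95% conditional Poisson intervals and dashed lines mark 2-fold. Dusp5 lies right of 0 in both Dormant to Primary comparisons (1.53 and 2.97) and Etv4 furthest left (-2.77 and -3.02), while Spry2, Spry4 and Spred2 lie inside the dashed lines in all 4.

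Dormant tumour cells also carried more lymphocyte RNA than Primary ones. A UMI of Ptprc or of a T or NK marker was seen in 52.0% of Dormant and 8.19% of Primary luminal tumour cells, and in 36.4% of Dormant and 12.1% of Primary basal tumour cells. The 18 markers summed to 313 CPM in Dormant luminal tumour cells, 7.34% of the T/NK level of that library, and to 26.7 CPM in Primary ones, 0.455% of the Primary T/NK level. In basal tumour cells the sums were 425 CPM in Dormant and 31.5 CPM in Primary. Dusp5 is abundant in T/NK cells, at 400 CPM in Dormant and 263 CPM in Primary, so its values were taken again in cells with none of these UMIs. In the 47 such Dormant luminal tumour cells Dusp5 was at 95.7 CPM (68.7 to 130), and in Primary at 51.9 CPM. In the 103 such Dormant basal tumour cells it was at 273 CPM (232 to 318), and in Primary at 30.6 CPM. Without marker-bearing cells the luminal Dusp5 gap was thus smaller than 2-fold, in fewer cells than the 50 set for a comparison, and the basal gap was as large. Cells without a marker UMI can still hold lymphocyte RNA, and its part in these values was not tested.

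Members that were lower in Dormant were taken again in the same way. In luminal tumour cells without a lymphocyte marker, Dusp6 was at 114 CPM (84.6 to 151) in Dormant and 335 CPM in Primary, and Etv5 at 18.7 CPM in Dormant and 59.4 CPM in Primary. Etv4 was at 4.67 CPM in Dormant and 20.8 CPM in Primary, and Spry1 at 7.00 and 23.9 CPM. Spred1 was at 9.34 CPM (2.54 to 23.9) in Dormant and 47.5 CPM in Primary, a wider gap than in all cells. All 5 genes stayed lower in Dormant. In its 47 such cells, though, Etv5 rested on 8 UMIs, Spred1 on 4, Spry1 on 3 and Etv4 on 2. In basal tumour cells the log2 ratios without marker-bearing cells were -2.83 for Etv4, -1.34 for Spry1, -0.83 for Etv5 and -0.55 for Dusp6, so the Etv5 call ended there.

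In Recurrent against Primary luminal tumour cells, 0 of the 10 members were higher, where 5.71% of 11858 genes were, and 2 were lower, where 8.2% of genes were. The 2 were Etv4, with a log2 ratio of -2.20 (a 4.59-fold lower level), and Spry1, a 3.17-fold lower level in Recurrent. With equal weight per cluster the Spry1 log2 ratio was -0.70. Dusp6, Etv5 and Spred1 had log2 ratios of -0.50, -0.77 and -0.50, none past 2-fold. The members' median log2 ratio was -0.50, and that of all genes was -0.05. Against Dormant, 2 members were higher in Recurrent, where 9.94% of 11534 genes were, and 0 were lower, where 15% of genes were. The stage comparisons of luminal cells share libraries with each other. The higher members were Dusp6, at a log2 ratio of 1.12, and Etv5, at 1.24, while Etv4 was at 0.57 and Dusp5 at -0.53. Equal weight per cell moved Etv5 to 0.79 and equal weight per cluster to 0.85, and leaving mitochondrial, ribosomal and haemoglobin genes out of the scaling moved Dusp6 to 0.97. Each of these ended a call.

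Recurrent and Primary luminal tumour cells were mostly in different clusters, and the Dusp6 and Etv5 values depended on them. Of the 2613 Recurrent cells, 2143 were in cluster 0, led by the milk genes Ltf and Lalba, and 186 in cluster 1, led by Aqp5, Cldn3 and Krt18, which held 1351 of the Primary and 60 of the Dormant cells. Within cluster 1, Dusp6 was at 342 CPM in Primary, 104 CPM in Dormant and 119 CPM in Recurrent. Etv5 was at 57.4, 8.01 and 13.4 CPM, Etv4 at 18.8, 0 and 5.14 CPM, and Spry1 at 25.0, 9.35 and 5.14 CPM in the same order. In this cluster Dusp6 in Recurrent lay nearer to Dormant than to Primary. So did Etv5, Etv4 and Spry1, but their Recurrent and Dormant UMIs were too few to pass the UMI minimum in this cluster. The Recurrent to Primary log2 ratio within it was -1.51 for Dusp6 and -2.05 for Etv5, and 4 members were lower. The Recurrent to Dormant ratio of Dusp6 was 0.19. In cluster 0 of Recurrent, Dusp6 stood at 251 CPM, Etv5 at 35.2 CPM and Etv4 at 3.81 CPM, and the 60 Primary cells of that cluster had Dusp6 at 316 CPM and Etv4 at 20.6 CPM. The low Etv4 of Recurrent was therefore seen in both clusters, and the low Dusp6 was more marked in cluster 1. In the cycling cluster 15, led by Pbk, Rrm2 and Cdk1, Recurrent had Dusp6 at 145 CPM against 258 CPM in Primary, and Etv4 at 9.42 CPM against 35.9 CPM.

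Within a library, basal tumour cells had more of most members than luminal ones. In Primary, 6 of the 10 were at least 2-fold higher in basal cells, where 10.8% of 11102 genes were, and 0 were lower, where 10.2% of genes were. The members' median log2 ratio was 1.17, against 0.03 for all genes. Etv4 led with a log2 ratio of 3.29, 9.81-fold higher in basal than in luminal tumour cells, and Spry4, Spry1, Spry2, Etv5 and Spred2 followed at 1.73, 1.5, 1.39, 1.23 and 1.12. Dusp6 was at 0.94, and Dusp4 and Dusp5 were at -0.74 and -0.56. In Dormant, 7 of the 9 members measured were higher in basal cells, where 11.9% of 7911 genes were, and 0 were lower, where 13.1% of genes were. The Dormant log2 ratios were 3.05 for Etv4, 1.96 for Etv5, 1.71 for Dusp6, 1.53 for Spry2, 1.46 for Spred2, 1.42 for Spry1 and 1.06 for Spred1, with Dusp5 at 0.88. The Dormant Spry1 ratio was 0.46 with equal weight per cell, and Spred1 and Spred2 were at 0.96 and 0.77 with equal weight per cluster. Etv4 had the highest ratio in both libraries, but its Dormant luminal level rests on 3 UMIs, and with equal weight per cluster its Dormant ratio was 1.82, below that of Dusp6 at 2.08.

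Counted per cell at 2000 UMIs, a mean of 1.48 of the 10 members was detected in Dormant and 1.63 in Primary basal tumour cells. The means in luminal tumour cells were 0.98 in Primary, 0.713 in Dormant and 0.788 in Recurrent. In fibroblasts they were 0.659 in Dormant, 0.523 in Long-term dormant and 0.48 in Recurrent. Basal tumour cells therefore carried most members per cell at equal depth. The 16 Recurrent basal tumour cells were too few for a comparison, and had Dusp6 at 708 CPM and Etv4 at 37.9 CPM from 3 UMIs.

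Long-term dormant tissue held luminal-like and basal-like cells without eGFP. In its 54 eGFP-negative basal cells Dusp6 was at 194 CPM, Spry2 at 155 CPM, Etv5 at 122 CPM, Dusp5 at 99.5 CPM and Etv4 at 55.3 CPM from 10 UMIs. In its 107 eGFP-negative luminal cells Dusp5 was at 55.4 CPM, Spred1 at 40.7 CPM, Dusp6 at 34.2 CPM, Etv5 at 13.0 CPM and Etv4 at 6.52 CPM. The basal cells again had the higher level of Dusp6, Etv4 and Etv5.

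The other cell classes each had their own set of members. Among classes of at least 50 cells, Dusp6 was above 100 CPM in the tumour cells, in Long-term dormant eGFP-negative basal cells and in Primary neutrophils, and below it in every other class. Fibroblasts had Spry2 at 107 to 136 CPM and little Etv4. Macrophage-monocyte cells had Spred1, Dusp5, Dusp6 and Etv5 but at most 5.95 CPM of any Sprouty gene. T/NK cells had Dusp5 at 263 CPM in Primary, 400 CPM in Dormant, 378 CPM in Long-term dormant and 315 CPM in Recurrent. Their Spry2 was at 52.6, 83.7, 152 and 31.9 CPM in the same order. Their Dusp6 ranged from 18.4 CPM in Long-term dormant to 34.0 CPM in Primary. Dendritic cells had Dusp5 at 150, 311, 207 and 291 CPM in the same order. The 288 B and plasma cells of Dormant had Dusp4 at 115 CPM, above its level in every tumour class. The 37 vascular cells of Primary had Spry1 at 248 CPM, Dusp6 at 200 CPM and Spry4 at 82.8 CPM, and its 52 neutrophils had Dusp5 at 684 CPM from 28 UMIs and Dusp6 at 293 CPM. Dusp5 was thus above 200 CPM in T/NK cells of all 4 libraries, in dendritic cells of 3, in Primary neutrophils and in Dormant basal tumour cells.

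**Figure D3:**
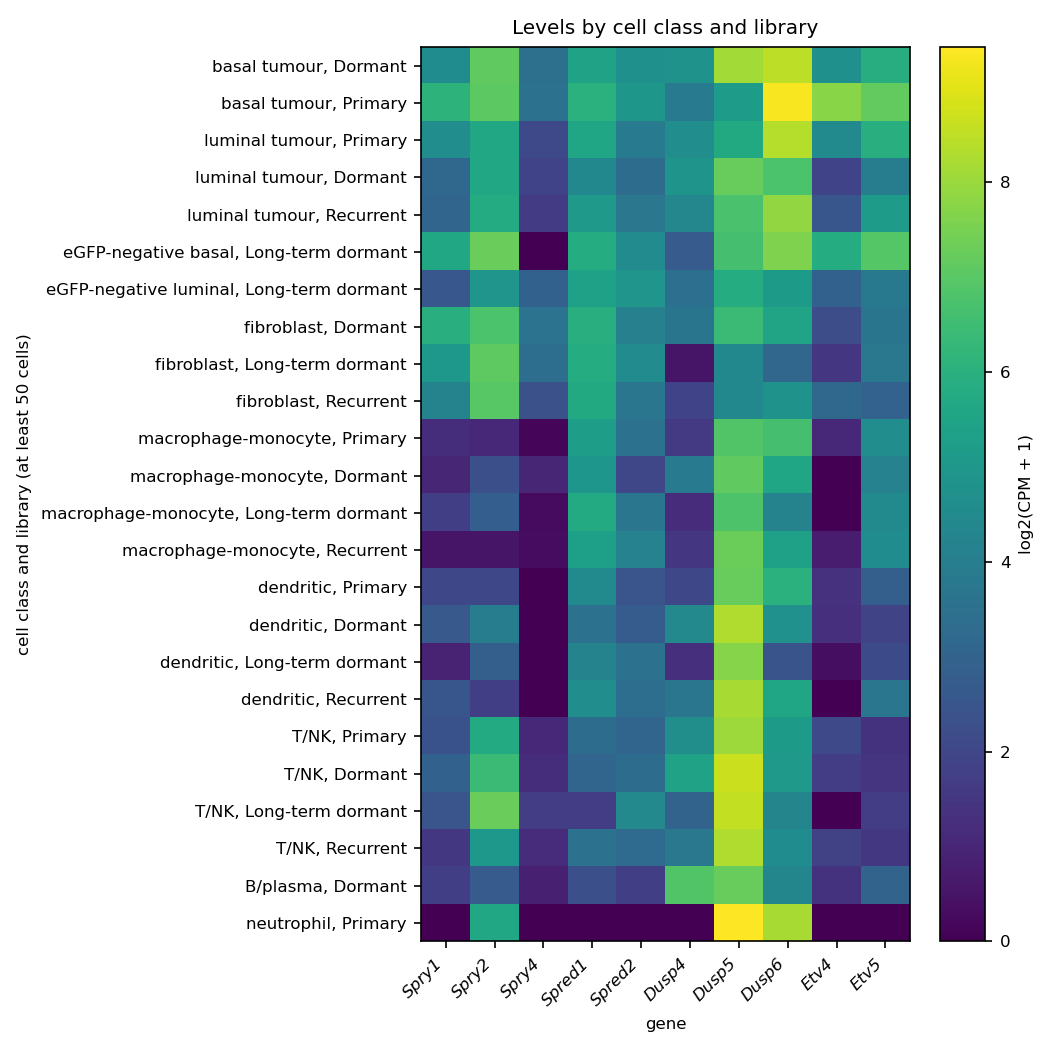
Heat map of log2(CPM + 1) for the 10 genes (columns) in every cell class of at least 50 cells in each library (rows). Dusp6 is brightest in Primary basal tumour cells (640 CPM), Dusp5 is bright in the Primary neutrophil row (684 CPM) and through the T/NK, dendritic and Dormant basal tumour rows, and Sprouty genes are dark in the macrophage-monocyte rows.

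In the stroma, fibroblasts could be compared between Long-term dormant (2897 cells), Dormant (300) and Recurrent (104), and Primary had only 7. Long-term dormant against Dormant, 0 of the 10 members were higher, where 7.47% of 11201 genes were, and 4 were lower, where 9.95% of genes were. The 4 were the 3 phosphatases and Etv4, and the members' median log2 ratio was -0.60, against -0.05 for all genes. Dusp6 was at 7.65 CPM in Long-term dormant and 44.6 CPM in Dormant fibroblasts, a log2 ratio of -2.55. Dusp5 was at 20.2 CPM in Long-term dormant and 84.9 CPM in Dormant, a ratio of -2.08. Dusp4 was at 0.445 CPM (5 UMIs) in Long-term dormant and 11.8 CPM (19 UMIs) in Dormant. All 3 phosphatases were thus at least 2-fold lower in Long-term dormant fibroblasts. The Etv4 ratio of -1.14 had an interval from -2.43 to 0.54, on 20 and 6 UMIs, and TMM scaling moved it to -0.94 and equal weight per cell to -0.88. Spry1, at 31.8 CPM in Long-term dormant and 60.8 CPM in Dormant, stayed just within 2-fold, at a log2 ratio of -0.94 that equal weight per cluster moved to -0.24. Spry2 was the most abundant member in both, at 136 and 107 CPM. T cell markers summed to 18.3 CPM in Long-term dormant and 155 CPM in Dormant fibroblasts. Macrophage-monocyte markers summed to 520 CPM in Long-term dormant and 1537 CPM in Dormant, and eGFP was at 0.534 and 110 CPM. The part of such RNA from other cells in the phosphatase values was not tested.

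The fibroblasts fell into 3 clusters that differed in these genes and in their size between libraries. Cluster 10 held 514 of the 2897 Long-term dormant and 138 of the 300 Dormant cells. Cluster 10, led by the matrix genes Postn, Lum and Col1a1, had Dusp6 at 11.8 CPM in Long-term dormant and 85.1 CPM in Dormant, and Dusp5 at 39.0 and 136 CPM. Its Spry1 level was 94.0 CPM in Long-term dormant and 109 CPM in Dormant. The 2 phosphatases therefore differed between the libraries in this cluster while Spry1 did not by 2-fold. Cluster 5, led by Pi16 and Sema3c, had Spry1 at 4.40 CPM in Long-term dormant and 0 in Dormant, but Spry2 at 146 and 135 CPM. Cluster 2, led by Bgn and Cilp, had Spry1 at 30.1 and 41.2 CPM, Spry2 at 135 and 60.6 CPM, Dusp5 at 20.7 and 46.1 CPM and Dusp6 at 9.60 and 7.27 CPM. Dusp5 was thus lower in Long-term dormant in clusters 10 and 2, and Dusp6 in cluster 10. In cluster 2, with 68 Dormant cells, Dusp6 was low in both libraries, too low to tell whether it differed. With equal weight per cluster, cluster 5 included, the Long-term dormant to Dormant log2 ratio was -1.65 for Dusp5 and -2.10 for Dusp6. In both libraries Spry1 was highest in cluster 10 and lowest in cluster 5, so that the 2 Sprouty genes were distributed differently over the fibroblasts.

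**Figure D4:**
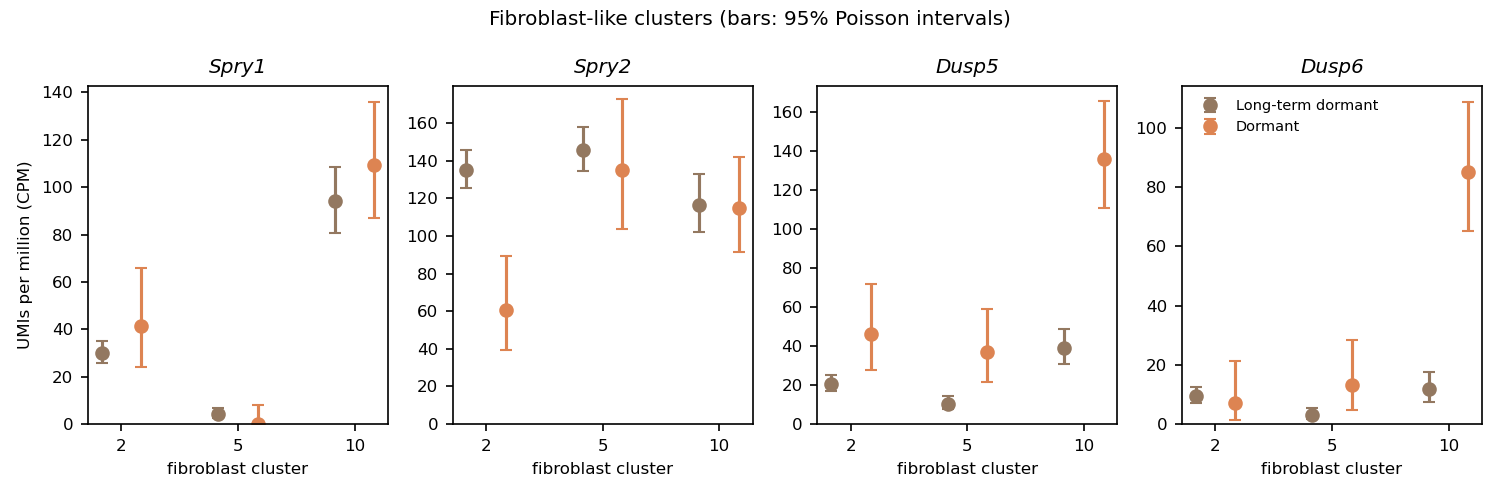
Level in CPM (axis from 0) of Spry1, Spry2, Dusp5 and Dusp6 in fibroblast clusters 2, 5 and 10, with Long-term dormant left of Dormant; bars are 95% Poisson intervals. Dusp6 stands out in cluster 10 of Dormant (85.1 CPM against 11.8 CPM in Long-term dormant), and Spry1 is highest in cluster 10 of both libraries.

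Recurrent against Long-term dormant fibroblasts, 2 of the 9 members measured were higher, where 5.78% of 11007 genes were, and 1 was lower, where 9.69% of genes were. Dusp6 was at 26.9 CPM (20 UMIs) in Recurrent and 7.65 CPM in Long-term dormant, and Etv4 at 8.06 CPM (6 UMIs) and 1.78 CPM. Spry4 had a log2 ratio of -1.02 with an interval from -3.54 to 0.35, and its call ended with the stricter cell filter (-0.98) and with a fixed doublet rate (-0.83). An eGFP UMI was present in 19.2% of Recurrent and 0.207% of Long-term dormant fibroblasts, or 5.77% and 0.036% after thinning. Dusp6 and Etv4 are genes of the tumour cells too, and the part of tumour-cell RNA in these 2 values was not tested.

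Macrophage-monocyte cells had 6 members measurable in Dormant against Primary. 1 of the 6 was higher, where 11.6% of 9526 genes were, and 2 were lower, where 9.48% of genes were. Dusp6 was at 46.8 CPM in Dormant and 98.9 CPM in Primary, a log2 ratio of -1.07 that equal weight per cell moved to -0.66. The 2 libraries lay mostly in different clusters, since 156 of the 209 Dormant cells were in cluster 4, and 627 and 510 of the 1261 Primary cells in clusters 3 and 9. Within cluster 4 Dusp6 was at 62.4 CPM in Dormant and 137 CPM in the 52 Primary cells, and within cluster 3 at 22.4 CPM in the 38 Dormant cells and 55.6 CPM in Primary. Dusp6 was thus lower in Dormant within both clusters. Spred2, a Spred relative of lower abundance, was at 2.99 CPM (3 UMIs) in Dormant and 10.6 CPM in Primary, with a log2 ratio of -1.61. Dusp4 was higher, at 13.9 CPM (14 UMIs) in Dormant and 2.03 CPM in Primary. T cell markers summed to 154 CPM in Dormant and 30.5 CPM in Primary macrophage-monocyte cells, and Dusp4 stood at 41.9 CPM in Dormant T/NK cells. The part of T cell RNA in the Dusp4 value was not tested.

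Dusp6 was also lower in the macrophage-monocyte cells of Recurrent than of Primary, at 40.8 and 98.9 CPM, a log2 ratio of -1.27. It was the 1 member of 6 that passed, where 2.14% of 10208 genes were lower, and 0 were higher, where 4.19% were. In the 2 clusters that held most of these cells, Dusp6 was at 91.7 CPM in Recurrent and 140 CPM in Primary (cluster 9), and at 26.6 and 55.6 CPM (cluster 3). Long-term dormant against Dormant, 1 of 7 members was higher, where 12.9% of 8981 genes were, and 2 were lower, where 6.84% were. Spred2 was the higher one, at 11.9 CPM against 2.99 CPM. Dusp6 was at 17.4 CPM in Long-term dormant and 46.8 CPM in Dormant, and Dusp4 at 1.27 and 13.9 CPM. Over the 4 libraries, macrophage-monocyte Dusp6 was highest in Primary and lowest in Long-term dormant. Dusp5 was at 116 CPM in Primary, 138 CPM in Dormant, 110 CPM in Long-term dormant and 157 CPM in Recurrent, and Etv5 between 16.9 and 23.4 CPM.

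Other genes of the pathway were read from lists, in which Egr1 and Dusp1 each appear 2 times. Among the other MAP kinase phosphatases, 3 of 8 measured were at least 2-fold higher and 2 lower in Dormant against Primary luminal tumour cells. Of all genes, 10.5% were higher and 10.2% lower there. In basal tumour cells 3 of 7 were higher and 1 lower, where 10.7% and 15.8% of all genes were. Dusp2, a nuclear phosphatase of lymphocytes, was at 37.1 CPM in Dormant and 3.01 CPM in Primary luminal tumour cells, and at 102 and 5.92 CPM in basal ones. Dusp10, which acts mainly on the stress kinases JNK and p38, had log2 ratios of 3.23 in luminal and 2.77 in basal tumour cells. Both thus went with Dusp5 and not with Dusp6. In luminal tumour cells without a lymphocyte marker, Dusp2 was at 35.0 CPM in Dormant (15 UMIs in 47 cells) and 1.97 CPM in Primary. In such basal cells it was at 78.3 and 5.23 CPM. Dusp10 in such luminal cells was at 14.0 CPM in Dormant (6 UMIs) and 1.25 CPM in Primary. In such basal cells Dusp10 was at 15.3 CPM (9 UMIs) and 2.62 CPM. Dormant T/NK cells had Dusp2 at 676 CPM and Dusp10 at 64.1 CPM, and cells without a marker UMI can still hold lymphocyte RNA. The part of such RNA in these Dusp2 and Dusp10 values was not tested. In Recurrent against Primary luminal tumour cells 1 of 8 was higher and 0 lower, where 5.71% and 8.2% of all genes were. The higher one was Dusp7, at 78.8 CPM in Recurrent and 28.4 CPM in Primary.

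Of the MAPK pathway activity score genes besides the members (Phlda1, Ccnd1, Epha2 and Epha4), Ccnd1, the G1 cyclin, differed in direction between the tumour cell types. It was at 528 CPM in Dormant and 167 CPM in Primary luminal tumour cells, but at 96.8 CPM in Dormant and 425 CPM in Primary basal tumour cells. In Recurrent luminal tumour cells it was at 50.4 CPM. Ccnd1 was the 1 called gene of the 4 measured in each of these comparisons. Of all genes, 10.5% were higher in Dormant than in Primary luminal tumour cells. In Dormant against Primary basal tumour cells 15.8% were lower, and in Recurrent against Primary luminal ones 8.2% were.

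Among the other ERK outputs, 5 of 15 were higher and 4 lower in Dormant against Primary luminal tumour cells. Of all genes, 10.5% were higher and 10.2% lower there. In basal tumour cells 4 of 14 were higher and 1 lower, where 10.7% and 15.8% of all genes were. Fosl1, an AP-1 subunit, was at 25.3 CPM in Dormant and 7.29 CPM in Primary luminal tumour cells, and at 76.5 and 6.24 CPM in basal ones. Areg, an EGF receptor ligand, was at 29.8 CPM in Dormant and 6.19 CPM in Primary luminal tumour cells. In Recurrent luminal tumour cells Areg was at 30.1 CPM and Fosl1 at 30.3 CPM. There 4 of 16 outputs were higher and 2 lower than in Primary, where 5.71% and 8.2% of all genes were. The basal log2 ratio of Areg was 0.03. In Dormant tumour cells some ERK outputs were therefore at least 2-fold higher and others lower, while Etv4 and Etv5 were at least 2-fold lower. The basal Etv5 call, however, ended with equal weight per cell (-0.82) and without cells bearing a lymphocyte marker (-0.83).

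Upstream genes were read beside the same shares of all genes (10.5% higher and 10.2% lower in luminal tumour cells, 10.7% and 15.8% in basal ones). Of 14 receptors and adaptors, 0 were higher and 1 lower in Dormant against Primary luminal tumour cells, the 1 being Fgfr1 at 25.3 CPM in Dormant and 58.0 CPM in Primary. Of 13 in basal tumour cells, 1 was higher (Gab1, an adaptor, log2 ratio 1.04) and 2 lower. The lower ones were receptors of the EGF receptor family, with Erbb3 at 3.90 CPM in Dormant and 15.0 CPM in Primary, and Erbb2 at 0 UMIs in Dormant and 9.98 CPM in Primary. Of the 15 core genes in luminal tumour cells 0 were higher and 2 lower, among them Nf1, the RAS GTPase activator neurofibromin, at 18.1 CPM in Dormant and 64.1 CPM in Primary. In basal tumour cells 0 of 14 were higher and 1 lower. Of the core genes, 13 of 15 in luminal and 13 of 14 in basal tumour cells thus stayed within 2-fold.

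Some genes of tissue handling and heat stress also differed. Of 15, 5 were higher and 0 lower in luminal tumour cells, Dormant against Primary, where 10.5% and 10.2% of all genes were. Basal tumour cells had 4 higher and 1 lower, where 10.7% and 15.8% of all genes were, the lower one being Fos at 735 CPM in Dormant and 1999 CPM in Primary. The list's median log2 ratio was 0.38 in luminal and 0.02 in basal tumour cells, and 10 of the 15 stayed within 2-fold in each. Hspa1b was at 293 CPM in Dormant and 52.9 CPM in Primary luminal tumour cells. In fibroblasts 1 was higher and 5 lower in Long-term dormant against Dormant, where 7.47% and 9.95% of all genes were. Hspa1a was at 98.4 CPM in Long-term dormant and 1890 CPM in Dormant fibroblasts. In macrophage-monocyte cells 4 were higher and 0 lower in Dormant against Primary, where 11.6% and 9.48% of all genes were. There 0 were higher and 6 lower in Long-term dormant against Dormant, where 12.9% and 6.84% of all genes were. Recurrent against Dormant luminal tumour cells also had 0 higher and 6 lower, where 9.94% and 15% of all genes were. Dusp5, Fosl1 and Maff are immediate early or delayed early genes that stress can induce, and the part of handling in their Dormant levels was not tested.

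**Figure D5:**
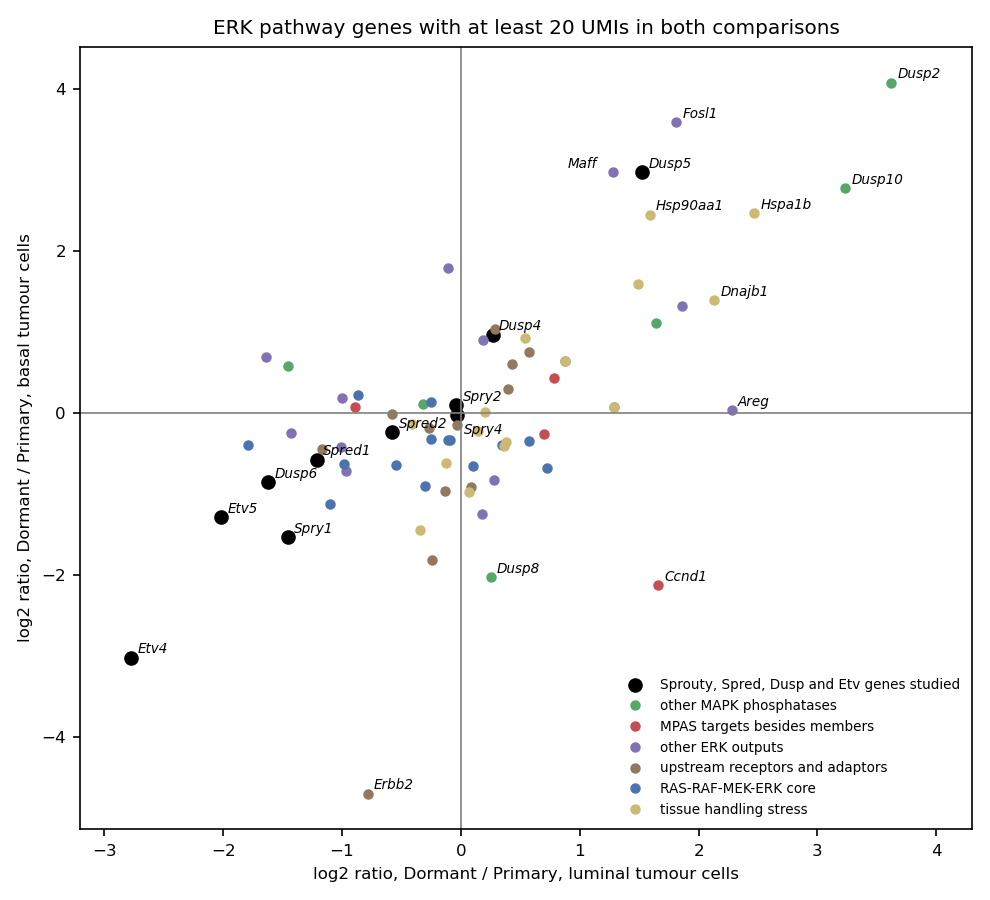
Log2 ratio of CPM, Dormant to Primary, in luminal (x) and basal (y) tumour cells for genes of the pathway lists with at least 20 UMIs in both comparisons, the 10 genes studied in black and the other lists in colour. Etv4, Etv5, Spry1 and Dusp6 lie at lower left and Dusp5 at upper right beside Fosl1, Maff and Dusp2, while Ccnd1 lies at lower right (1.66 and -2.13); the basal Erbb2 value is set against 0 Dormant UMIs and is no bound.

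Across the 24 sums of at least 50 cells by class and library, the genes whose log2(CPM + 1) was most like a member's were found among 4758 genes. These are descriptions over sums that share libraries and depth, with no test. Etv4 was most like Adamts18 (Pearson r = 0.90), Tinagl1 (0.90) and Rflnb (0.89). Dusp6 was most like Pfkl (0.89), Ing4 (0.87) and Itga6 (0.85), and Etv5 most like Ctbp2 (0.86), Pdlim4 (0.86) and Tpm1 (0.84). Dusp5 was most like Rbm38 (0.91), Batf (0.89) and Il2rg (0.86), the last being a shared chain of lymphocyte cytokine receptors. Spry1 was most like Ccn1 (0.90), Gja1 (0.90) and Serpinh1 (0.89), the last being a collagen chaperone, and Spry2 most like Utrn (0.86). No member was among the 3 genes closest to another member. Among member pairs, Spry1 and Etv4 had r = 0.77, Spred1 and Etv5 had 0.78, and Spred1 and Dusp5 had -0.75.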

How the data were processed

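Single-cell RNA was counted as UMIs per gene and cell. The deposited values are raw counts, made with Cell Ranger 3.1.0 on mm10 per the submitters' processing notes, and per the labels the 4 libraries used the Chromium 3' chemistry in version 2. Filters before deposit, and whether counting used strand, are not given in the sources used here. Spry1, Spry4 and Dusp5 overlap genes on the other strand. The IgG and Jag1 libraries, of version 3, were left out.

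The members and lists were chosen with earlier results of these data known. Cells entered if they had 500 UMIs and 200 genes or more, and a mitochondrial share of no more than 20%. Scrublet in scanpy 1.11.5 marked 53 of 4328 Primary, 137 of 6004 Long-term dormant and 57 of 4685 Recurrent cells as doublets, which were left out. It marked 0 of 3276 Dormant cells, so it did not work on that library. Counts were scaled to 10000 per cell. Clusters came from 2000 variable genes (without members and eGFP) reduced to 30 components, joined by 15 neighbours each and split by leidenalg 0.10.2 at resolution 1.0. A class needed 3 markers in 5% of a cluster's cells. T with NK, B with plasma and endothelial with pericyte clusters were merged after the clusters were seen.

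Levels are CPM, the UMIs of a gene summed over a class in 1 library, per 1000000 such UMIs of any gene. Levels have exact Poisson, shares exact Clopper-Pearson and log2 ratios (prior 0.5) exact conditional Poisson intervals at 95%, for counting error only. Between groups there was no test. The code was tested on simulated data with known folds before use. From each pathway list up to 3 genes with the largest ratio could be named, and for each member the 3 most similar genes. Genes and cells named outside these rules (Krt5, Krt14, cluster-leading genes, Dusp6 in single clusters and the like) were chosen after their values were seen. Alternatives covered cell filters, doublets, resolution, eGFP, weighting, minimums, the fold, and TMM scaling with edgeR 4.0.16 in R 4.3.3. Other steps used Python 3.11.15, numpy 2.4.6, pandas 2.3.3, scipy 1.17.1 and matplotlib 3.10.9.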

Additional observations from a re-analysis of the deposited data

Results flagged for a closer look

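Ccnd1 had Dormant to Primary log2 ratios of 1.66 in luminal tumour cells, -2.13 in basal tumour cells and -1.64 in macrophage-monocyte cells, so the library with more Ccnd1 differed between classes. Dusp7 had ratios of -1.45 in luminal tumour cells and 1.78 in macrophage-monocyte cells, Hbegf of -1.01 and 2.14, and Ier3 of -1.0 and 2.56. These 4 genes of the pathway lists stood out because their ratio passed 2-fold in opposite directions in 2 classes of the same libraries. The luminal ratios of Hbegf and Ier3 lay at the 2-fold line. Scaling without mitochondrial, ribosomal and haemoglobin genes shifts luminal ratios by 0.04, which takes both inside it, while TMM scaling shifts them by -0.14. The differences between the classes were not tested, with 1 library per group. No member of the 10 did so.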

How the results depend on the processing

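No paired analysis was possible because each group held 1 library. No ratio of a called member changed sign under the alternatives run. Of the values recomputed, 1646 stayed within their counting interval (counts of genes, within 1.5 times) and 87 did not. Counts of called members that changed by more than 1.5 times follow, with the count as reported in brackets. With TMM factors, Recurrent to Primary luminal gave 1 higher (0) and Dormant to Primary basal 2 higher (1). With the stricter cell filter, Dormant to Primary basal gave 2 higher (1), Recurrent to Long-term dormant fibroblasts 0 lower (1) and Long-term dormant to Dormant macrophage-monocyte cells 1 lower (2). With at least 3 eGFP UMIs, Recurrent to Primary luminal gave 1 higher (0).

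At 1.5-fold, basal to luminal in Primary gave 1 lower (0), Long-term dormant to Dormant macrophage-monocyte cells 2 higher (1), Recurrent to Primary ones 1 higher (0), Recurrent to Long-term dormant fibroblasts 4 lower (1), Recurrent to Dormant luminal 1 lower (0), Dormant to Primary basal 2 higher (1), and Recurrent to Primary luminal 4 lower (2) and 1 higher (0). With equal weight per cell, Dormant to Primary gave 3 lower (5) in luminal and 1 lower (2) in macrophage-monocyte cells, Long-term dormant to Dormant macrophage-monocyte cells 2 higher (1), Recurrent to Dormant luminal 1 higher (2) and 1 lower (0), Recurrent to Primary luminal 1 higher (0), and Recurrent to Long-term dormant fibroblasts 3 lower (1). With equal weight per cluster, Dormant to Primary luminal gave 0 higher (1) and 3 lower (5), Recurrent to Dormant luminal 1 higher (2), basal to luminal in Primary 1 lower (0), and Recurrent to Long-term dormant fibroblasts 3 lower (1).

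With a minimum of 100 UMIs, Dormant to Primary macrophage-monocyte cells gave 0 higher (1), Long-term dormant to Dormant ones 0 higher (1) and 1 lower (2), basal to luminal in Dormant 2 higher (7), Long-term dormant to Dormant fibroblasts 2 lower (4) and Recurrent to Long-term dormant ones 1 higher (2). Fewer genes enter these counts by construction. With a minimum of 5 UMIs or with doublets kept, Recurrent to Primary macrophage-monocyte cells gave 3 lower (1) and Dormant to Primary ones 2 higher (1). Doublets kept also gave 1 higher (0) in Recurrent to Primary and 1 lower (2) in Long-term dormant to Dormant macrophage-monocyte cells. The last count was also 1 with the members among the variable genes. A fixed doublet rate gave 0 lower (1) in Recurrent to Long-term dormant fibroblasts, luminal cells of cluster 1 alone gave 4 lower (2) in Recurrent to Primary and 0 higher (2) in Recurrent to Dormant, and scaling without mitochondrial, ribosomal and haemoglobin genes gave 1 higher (2) in the last. The fixed doublet rate, cluster 1 alone and cells without lymphocyte markers were chosen after seeing the data. Except where stated, the cause was not tested.

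Over all alternatives run, Dormant to Primary log2 ratios in luminal tumour cells ran from -2.11 to -1.58 for Dusp6, -4.82 to -1.48 for Etv4, -2.73 to -1.59 for Etv5 and 0.48 to 1.58 for Dusp5. In basal tumour cells they ran from 2.81 to 3.15 for Dusp5 and -3.04 to -2.79 for Etv4. TMM scaling shifted the median of all genes by -0.14 in luminal and 0.15 in basal tumour cells for Dormant to Primary, and by 0.22 for Recurrent to Dormant. The other shifts beyond 0.1 were 0.20 and -0.16 in the fibroblast comparisons, -0.12 and -0.16 in the macrophage-monocyte comparisons with Dormant, and 0.21 for basal to luminal in Dormant. Depth limited the members with few UMIs in Dormant luminal tumour cells (Spry1 9, Spry4 3, Spred2 10, Etv4 3), and only 98 luminal tumour cells stood for Dormant.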
